A study of Arabidopsis thaliana with 18 samples.

Results

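Of the 32678 genes in the count table, 24 peaked at 6 h in mock-sprayed Arabidopsis leaves. These genes were selected on their levels in the mock libraries alone, as counts per 1000000 reads assigned to genes (CPM). A gene was taken where its mock mean at 6 h was at least 10 CPM and, with 0.5 CPM added to each mean, was at least 5 times the mock mean at 12 h and at least 5 times that at 24 h. The level was reached by 10569 genes. Of those, 201 met the 12 h condition, 293 met the 24 h condition, and 24 met both. All 24 were among the 19227 genes with enough reads for testing, and 15 of them have a gene symbol. The estradiol libraries were not used in the choice.

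The RNA was polyadenylated RNA from leaves of ED-P4E1, an Arabidopsis thaliana line of the Col-0 ecotype. Every group, mock included, carried the mutations eds1-2 and pad4-1 together with an EDS1 transgene driven by the constitutive 35S promoter and a PAD4 transgene driven by an estradiol-inducible promoter. EDS1 and PAD4 are lipase-like partners in plant immunity, and the series asks which transcripts respond when PAD4 is switched on beside EDS1. Leaves of 4-week-old plants were sprayed with 10 µM estradiol or with 0.2% DMSO as mock, both with 0.01% of a silwet surfactant, in chambers at 22 °C, 65% humidity and a 10 h photoperiod. The labels give no DMSO content for the estradiol spray. As every group carried the PAD4 transgene, effects of estradiol itself, its solvent and PAD4 cannot be told apart. The 6 groups were estradiol at 6, 12 and 24 h after the spray and mock at 6, 12 and 24 h, each with 3 libraries. The hour of day of the spray and of each harvest is not stated by the labels, so time after the spray and time of day cannot be told apart. The labels do not say whether replicates came from separate plants or batches, and the p-values then rest only on the spread among these libraries, which may be technical.

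The libraries held 19.1 to 48.1 M gene reads, at which 3 reads, the floor used here, equal 0.0624 to 0.157 CPM in a library. PAD4 followed the labels, with 199.7 ± 68.3 CPM in estradiol leaves against 29.3 ± 2.19 CPM in mock leaves at 6 h (SD, n = 3 each), 393.0 ± 49.7 against 20.2 ± 0.156 CPM at 12 h, and 219.7 ± 93.2 against 14.9 ± 2.56 CPM at 24 h. EDS1 averaged 2852 ± 461.9 CPM in estradiol leaves and 3091 ± 374 CPM in mock leaves at 6 h (SD, n = 3 each). RBCS1A, the small subunit of Rubisco and a marker of leaf tissue, averaged 16772 CPM in estradiol leaves and 17396 CPM in mock leaves at 6 h. Of the flower markers, AP3, PI and SEP3 had group means of at most 0.185 CPM and AG of at most 2.48 CPM. Among the 6 h libraries, estradiol replicate 3 stood apart in several of the 24 genes, and the results that rest on it are also given without it. In whole leaves, fewer cells of a type and less RNA per cell cannot be told apart.

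Many leaf transcripts cycle over the day, set by light and by the circadian clock, a network of repressors that act in turn from dawn to night. The PRR proteins, of which PRR5 is one, are repressors expressed in sequence during the day, and genes of chlorophyll synthesis, light harvesting and cold tolerance are known to be gated to particular hours by this clock. Several members of the group described here belong to those classes, and others act in terpene, glucosinolate or polyamine metabolism, in the cell wall or in defence.

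The mock 6 h means of the 24 genes ran from 16.4 CPM for DREB1A to 4219 CPM for LHB1B1. Per kilobase of exon, LHB1B1 was also the most abundant at 3216 CPM per kb in mock leaves at 6 h, and TPS03 was the least abundant at 7.84 CPM per kb. Summed over the 24 genes, the level at 6 h was 10419 to 12479.6 CPM in estradiol libraries against 10292 to 10730.2 CPM in mock libraries. At 12 h the sum was 682.5 to 802.2 CPM in estradiol libraries against 652.3 to 859.9 CPM in mock libraries. At 24 h it was 368.6 to 699.5 CPM in estradiol libraries against 367.2 to 858.3 CPM in mock libraries. The sum was thus far lower at both later times in estradiol leaves, while in mock leaves the rule itself required the fall. Most of the sum came from LHB1B1, PORB, AT4G18440 and BGLU44, with mock 6 h means of 4219, 2342, 1812 and 1017 CPM. It therefore says little about the less abundant genes. The genes lie on all nuclear chromosomes, with 8 on chromosome 1, 5 on chromosome 2, 1 on chromosome 3, 7 on chromosome 4 and 3 on chromosome 5.

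**Figure D1:**
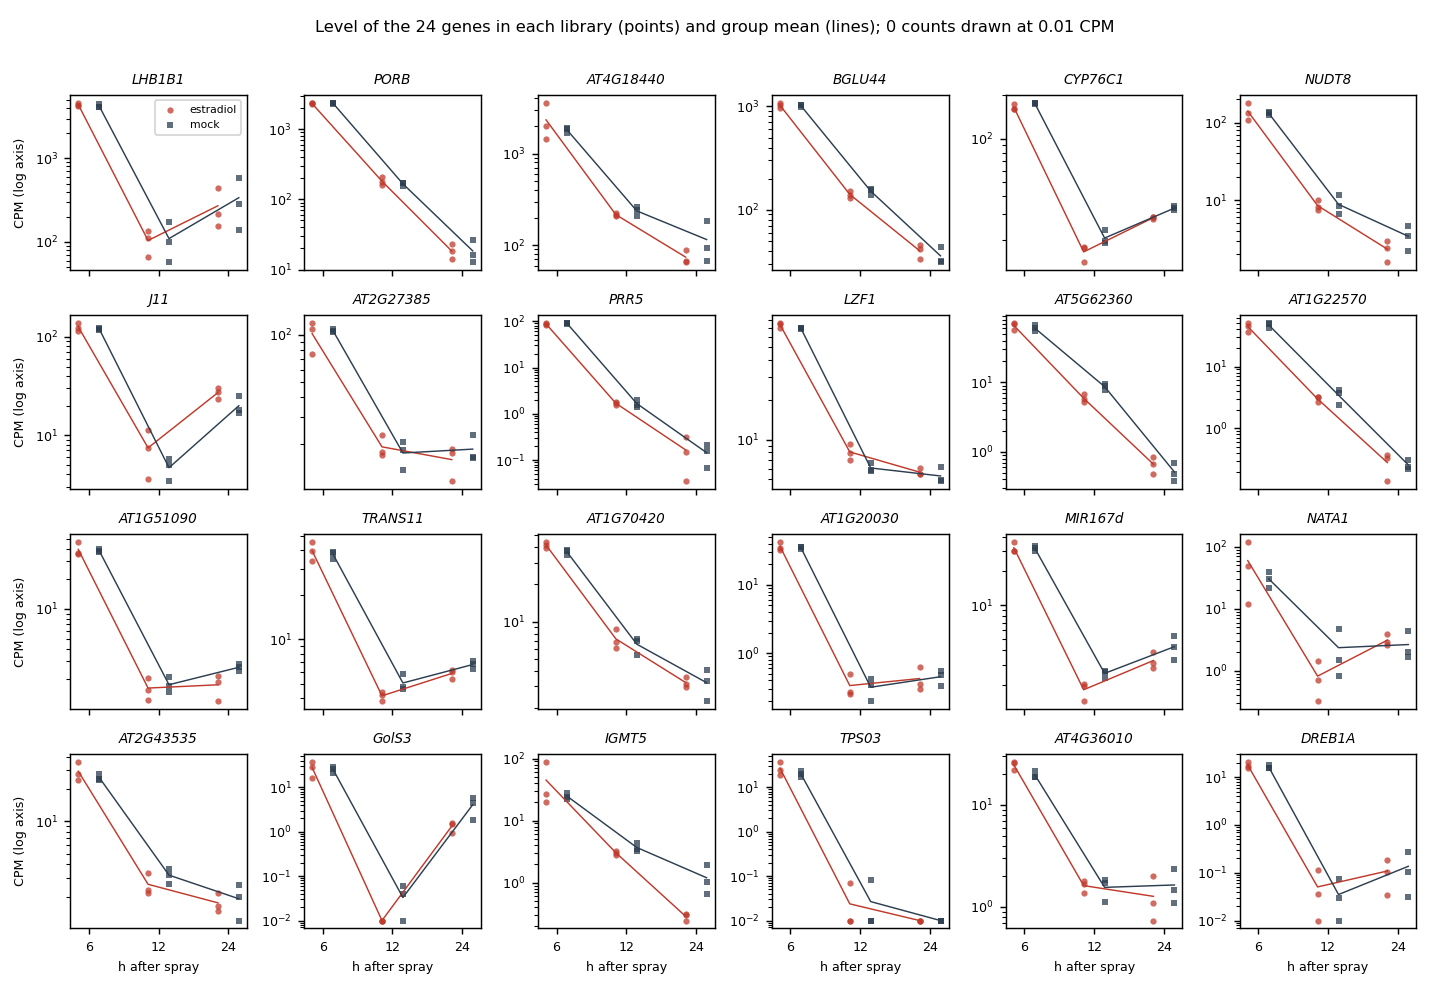
CPM on log axes (1 panel per gene, each with its own range) at 6, 12 and 24 h after the spray. Points are single libraries, estradiol in red to the left and mock in dark blue to the right, lines join group means, and a count of 0 is drawn at 0.01 CPM. The 6 h libraries lie above all libraries of 12 and 24 h in each panel, under estradiol as under mock.

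The thresholds cut through a continuous range. Just inside the fold condition were TRANS11, at 5.22 times, and CYP76C1, at 5.23 times the higher of the later mock means, with 0.5 CPM added. Just outside were AT2G43550 at 4.86 times and AT3G55240 at 4.72 times. Among genes that met the fold conditions, DREB1A at 16.4 CPM and AT4G36010 at 19.8 CPM were nearest above the level, and TPS10 at 6.29 CPM and PORA at 6.09 CPM were nearest below it.

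Because the estradiol libraries took no part in the choice, the fall after 6 h was tested in them. All 24 genes fell between 6 and 12 h in estradiol leaves (edgeR's quasi-likelihood test, Benjamini-Hochberg adjusted p from 1.93e-17 to 5.54e-07), where 32.9% of all tested genes were called lower. The median log2 fold change of the 24 was -4.38, against 0.02 over all genes tested. AT2G27385 fell least, by 2.85 on the log2 scale, and 2.46% of all tested genes fell at least that far. All 24 were also lower at 24 h than at 6 h in estradiol leaves (adjusted p from 3.40e-17 to 2.15e-05), where 32.5% of all tested genes were called lower, and their median log2 fold change was -4.31 against 0.01. J11 fell least by 24 h, by 2.13 on the log2 scale, and 3.46% of tested genes fell at least that far. In each of the 24 genes the lowest estradiol library of 6 h was above the highest of 12 h and the highest of 24 h. Of all tested genes, 78.9% and 67.7% had groups that did not overlap, with rises and falls counted together. These folds use TMM scaling, and scaling by gene totals alone moved the median of all genes by 0.46 for 12 h over 6 h, by -0.09 for 24 h over 6 h and by -0.55 for 24 h over 12 h (log2), with the 24 falls from 6 h still called. The estradiol libraries belong to the same series as the mock libraries, so they are another set of libraries and not another experiment.

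**Figure D2:**
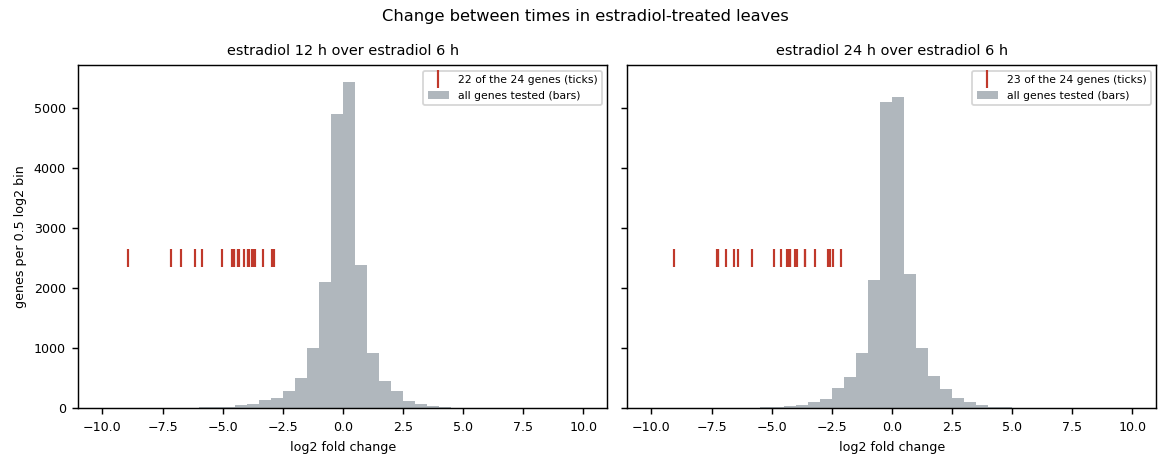
Grey bars count all tested genes per 0.5 log2 bin for 12 h over 6 h (left) and 24 h over 6 h (right) in estradiol leaves. Red ticks mark the genes of the group with more than 3 counts in both times, 22 on the left and 23 on the right, and all lie below 0, at or below -2.85 on the left and -2.13 on the right.

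Among the genes for light harvesting and chlorophyll, LHB1B1 and PORB were the 2 most abundant of the group. LHB1B1 (AT2G34430, chr2:14524607-14525918, plus strand, TAIR10.1) encodes a chlorophyll-binding protein of the antenna of photosystem II. Its level was 4403, 4598 and 4216 CPM in estradiol leaves against 4455, 4086 and 4117 CPM in mock leaves at 6 h. At 12 h it was 136.0, 66.8 and 110.1 CPM in estradiol leaves against 99.1, 172.3 and 58.0 CPM in mock leaves. At 24 h it was 156.0, 438.9 and 218.2 CPM in estradiol leaves against 587.0, 287.9 and 140.3 CPM in mock leaves. The 2 treatments overlapped at each time, and the later values were spread more than 2-fold within each group. Its neighbour LHB1B2, which shares 91.4% identity over 61.2% of the transcript, stood at 12099.8, 1419 and 7141 CPM in mock leaves at 6, 12 and 24 h, so a share of LHB1B1 reads may depend on how reads common to both were counted.

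PORB (AT4G27440, chr4:13725546-13727440, plus strand) encodes the enzyme that reduces protochlorophyllide to chlorophyllide in the light. It had 2355, 2345 and 2258 CPM in estradiol leaves against 2293, 2369 and 2365 CPM in mock leaves at 6 h, then 207.4, 161.7 and 176.1 CPM against 168.7, 174.0 and 157.4 CPM at 12 h. By 24 h it was at 14.0, 22.9 and 18.1 CPM in estradiol leaves against 26.5, 15.9 and 12.9 CPM in mock leaves. PORB thus declined through both intervals, and in estradiol leaves fell by 4.13 ± 0.19 between 6 and 12 h and fell by 2.77 ± 0.19 between 12 and 24 h (log2 fold change and SE, adjusted p = 1.48e-12 and 2.47e-10). Its exons overlap those of AT4G27450 on the other strand, and since a strand setting is not given, reads of the 2 genes cannot be told apart there. The related PORA, the form used mainly in dark-grown seedlings, had means of 6.09, 0.0358 and 0.126 CPM in mock leaves at 6, 12 and 24 h. PORA was thus also highest at 6 h, but its later means are near or below the floor, so their order is uncertain. It shares 82.6% identity with PORB over 73.7% of the PORB transcript. Whether PORB reads add to the PORA level was not tested.

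The other photosynthesis genes looked at did not share this course as a list. Of 11 such genes, none of them in the group, 10 were lower and 1 was higher at 12 h than at 6 h in estradiol leaves, but at 24 h 6 were higher and 3 lower than at 6 h. The shares of all tested genes called lower were 32.9% at 12 h and 32.5% at 24 h. LHCB2.1, another antenna gene, had 3319.5, 8.39 and 2902 CPM in estradiol leaves and 3362, 6.69 and 3171 CPM in mock leaves at 6, 12 and 24 h. It was therefore back near its 6 h level at 24 h, while LHB1B1 was at 271.1 ± 148.6 CPM in estradiol leaves and 338.4 ± 227.6 CPM in mock leaves (SD, n = 3 each). J11 (AT4G36040), a small J-domain cochaperone of the chloroplast, had 124.7, 115.7 and 139.9 CPM in estradiol leaves against 123.7, 118.5 and 120.5 CPM in mock leaves at 6 h, and 11.3, 7.38 and 3.61 CPM against 5.69, 4.92 and 3.39 CPM at 12 h. At 24 h it was partly back, at 27.4, 23.4 and 30.5 CPM in estradiol leaves and 16.8, 18 and 25 CPM in mock leaves.

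The clock and light-signalling genes of the group were PRR5 and LZF1. PRR5 (AT5G24470, chr5:8356204-8358546, minus strand) is a pseudo-response regulator that represses the morning genes of the clock. Its level was 88.0, 80.9 and 93.2 CPM in estradiol leaves against 87.3, 92.5 and 89.3 CPM in mock leaves at 6 h. At 12 h it was 1.68, 1.57 and 1.82 CPM in estradiol leaves against 2.04, 1.4 and 1.56 CPM in mock leaves, and at 24 h 0.0349, 0.315 and 0.149 CPM against 0.159, 0.208 and 0.0684 CPM. PRR5 was thus near the counting floor by 24 h, and its mock 6 h level was 41.6 times the higher of its later mock means with 0.5 CPM added, the highest ratio among the 24 genes. In estradiol leaves it fell by 6.15 ± 0.13 between 6 and 12 h and fell by 9.08 ± 0.19 between 6 and 24 h (log2 fold change and SE, edgeR adjusted p = 1.93e-17 and 3.40e-17). The value for 24 h over 6 h rested on 11 reads at 24 h and moved to -9.78 without estradiol 24 h replicate 2. That move is larger than the SE, which thus understates the uncertainty.

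Other evening genes followed several courses. Of 12 genes on an evening clock list, PRR5 among them, 6 were lower and 5 higher at 12 h than at 6 h in estradiol leaves, and 9 were lower and 1 higher at 24 h than at 6 h. Lower calls covered 32.9% and 32.5% of all tested genes at 12 and 24 h. TOC1, a later-phased PRR, had 30.2, 85 and 4.57 CPM in estradiol leaves and 31.8, 74.1 and 3.15 CPM in mock leaves at 6, 12 and 24 h, so that its highest mean was at 12 h. GI, a scaffold of the evening clock, had 183.0, 1.8 and 71.0 CPM in estradiol leaves and 185.7, 1.29 and 63.0 CPM in mock leaves, and missed the rule through its 24 h level. PRR9, the closest match to PRR5 in sequence, with 73.9% identity over 24.0% of the transcript, stood at 33.3, 0.0386 and 52.6 CPM in mock leaves. Between estradiol and mock, edgeR called 1 gene of the list, higher at 24 h, where 8.43% of all tested genes were.

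LZF1 (AT1G78600), also called BBX22, is a B-box zinc finger protein that promotes light responses in seedlings. It had 77.1, 70.6 and 75.8 CPM in estradiol leaves against 70.4, 70.4 and 68.7 CPM in mock leaves at 6 h. At 12 h it had 9.21, 7.95 and 7.06 CPM in estradiol leaves against 6.69, 5.75 and 5.86 CPM in mock leaves, and at 24 h 5.45, 6.08 and 5.49 CPM against 6.16, 4.83 and 4.93 CPM. The estradiol libraries were all above the mock libraries at 6 and 12 h and overlapped them at 24 h. Of the 12 B-box genes on the list, LZF1 among them, 11 were lower and 1 higher at 12 h than at 6 h in estradiol leaves, whereas 8 were higher and 2, LZF1 and BBX21, lower at 24 h than at 6 h. Over all tested genes, 32.9% and 32.5% were called lower at 12 and 24 h. BBX24, a relative of LZF1, had 269.3, 10.1 and 370.5 CPM in estradiol leaves and 269.6, 8.5 and 388.0 CPM in mock leaves at 6, 12 and 24 h.

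The stretches just upstream of the annotated starts were searched for motifs linked to clock, light and cold control, on both strands of the 250 bases before each gene in the TAIR10.1 reference. The evening element, AAAATATCT, was present in 4 of the 24 windows (16.7%), against 2.22% of the windows of all 31911 genes with a window. These 4 genes were PORB, PRR5, AT5G62360 and AT1G20030. The CCA1-binding site, AAAAATCT, a word that neither holds nor lies in the evening element, was in 5 windows (20.8%, against 6.33% of all), those of LHB1B1, J11, PRR5, AT1G20030 and TPS03. The G-box CACGTG was in 2 windows (8.3%, against 5.91%), the I-box GATAAG in 3 (12.5%, against 12.6%) and the CRT/DRE core CCGAC, a short word that CBF proteins bind, in 7 (29.2%, against 12.2%). A match is a string of letters and not a binding event, and the difference in shares was not tested. The windows that hold an evening element are printed because that word is the classic mark of evening phase, and those of GolS3 and AT1G51090 because each holds 2 CRT/DRE cores. Capitals mark matches to any of the 5 motifs on either strand, and each sequence runs 5′ to 3′ on the gene's strand up to the base before the annotated start. PRR5 is chr5:8358547-8358796 on the minus strand, AT5G62360 is chr5:25040290-25040539, AT1G20030 is chr1:6945175-6945424, GolS3 is chr1:3019389-3019638, AT1G51090 is chr1:18932516-18932765 and PORB is chr4:13725360-13725545, all plus strand, with the PORB window shortened to 186 bases because a neighbouring exon lies before it.
PRR5: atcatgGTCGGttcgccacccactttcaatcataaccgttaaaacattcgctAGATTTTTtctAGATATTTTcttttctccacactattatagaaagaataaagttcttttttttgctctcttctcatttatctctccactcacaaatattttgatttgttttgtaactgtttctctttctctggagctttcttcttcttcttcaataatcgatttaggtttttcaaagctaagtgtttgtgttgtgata
PORB: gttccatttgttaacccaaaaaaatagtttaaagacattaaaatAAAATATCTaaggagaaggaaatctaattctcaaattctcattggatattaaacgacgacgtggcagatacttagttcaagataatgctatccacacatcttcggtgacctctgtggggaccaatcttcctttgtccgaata
AT5G62360: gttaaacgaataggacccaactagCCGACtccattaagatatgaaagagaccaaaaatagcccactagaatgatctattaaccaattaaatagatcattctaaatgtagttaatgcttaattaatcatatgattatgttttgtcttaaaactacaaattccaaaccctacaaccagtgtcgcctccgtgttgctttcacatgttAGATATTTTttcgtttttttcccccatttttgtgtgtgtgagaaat
AT1G20030: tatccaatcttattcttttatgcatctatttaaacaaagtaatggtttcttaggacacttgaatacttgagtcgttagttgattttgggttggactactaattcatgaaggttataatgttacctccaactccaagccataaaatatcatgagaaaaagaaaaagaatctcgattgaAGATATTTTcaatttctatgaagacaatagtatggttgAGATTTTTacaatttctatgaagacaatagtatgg
GolS3: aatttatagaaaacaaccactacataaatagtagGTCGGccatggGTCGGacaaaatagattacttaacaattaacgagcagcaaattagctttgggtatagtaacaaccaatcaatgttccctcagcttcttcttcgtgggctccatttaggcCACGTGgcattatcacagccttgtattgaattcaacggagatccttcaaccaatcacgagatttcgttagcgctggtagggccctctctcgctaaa
AT1G51090: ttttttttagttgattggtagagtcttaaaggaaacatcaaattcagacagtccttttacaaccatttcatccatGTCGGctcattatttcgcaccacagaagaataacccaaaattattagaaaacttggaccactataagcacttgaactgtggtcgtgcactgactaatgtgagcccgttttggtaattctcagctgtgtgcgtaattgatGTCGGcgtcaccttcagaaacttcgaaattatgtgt

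**Figure D3:**
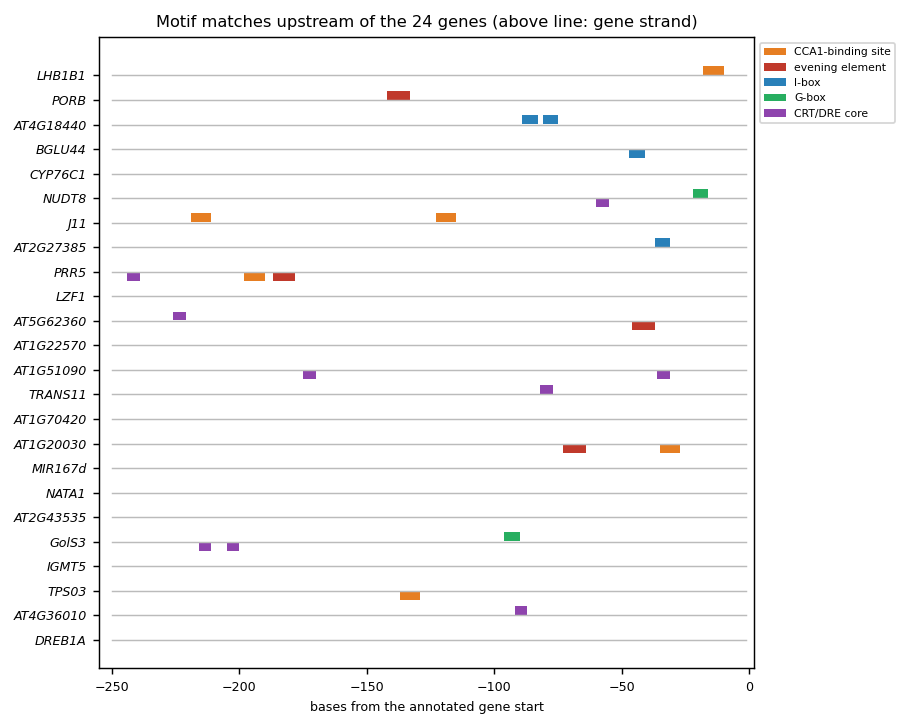
Position of each motif match, in bases from the annotated start, in the 250 bases upstream of the 24 genes (1 row per gene). Boxes above a line are on the gene's strand and boxes below it on the other strand, and colours name the motif. Evening elements lie in 4 rows, CRT/DRE cores in 7 and 9 rows hold no match of any kind.

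As these windows show, the evening element of PRR5 starts 187 bases upstream and lies beside a CCA1-binding site, that of AT1G20030 starts 73 bases upstream with a CCA1-binding site after it, and those of PORB and AT5G62360 start 142 and 46 bases upstream. The 4 genes with the element differed in course. PORB and AT5G62360 declined in steps at 12 and 24 h. PRR5 was at or below 2.04 CPM in all libraries by 12 h, and AT1G20030 had 42.2, 32.9 and 35.1 CPM in estradiol leaves at 6 h, 0.488, 0.249 and 0.271 CPM at 12 h and 0.349, 0.629 and 0.299 CPM at 24 h. Mock leaves had 35.8, 33.9 and 35.5 CPM of AT1G20030, a thaumatin-like protein gene, at 6 h, 0.2, 0.34 and 0.413 CPM at 12 h and 0.477, 0.333 and 0.548 CPM at 24 h.

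DREB1A and GolS3 are the cold-regulon members of the group. DREB1A (AT4G25480, also CBF3, chr4:13018010-13019400, minus strand) encodes a transcription factor that binds CRT/DRE cores and switches on cold-tolerance genes. Its level was 21.0, 17.1 and 15.5 CPM in estradiol leaves against 15.7, 17.6 and 15.9 CPM in mock leaves at 6 h. At 12 h the 3 libraries together held 4 reads in estradiol leaves and 3 in mock leaves, and at 24 h the levels were 0.0349, 0.105 and 0.187 CPM in estradiol leaves against 0.0318, 0.104 and 0.274 CPM in mock leaves. From 6 to 12 h in estradiol leaves DREB1A fell by 8.95 ± 0.35 (log2 fold change and SE, edgeR adjusted p = 1.00e-13). That fold moved to -8.26 without estradiol 12 h replicate 1 and to -10.21 without estradiol 12 h replicate 3. Both moves are larger than the SE, which thus understates the uncertainty. The tandem relative CBF2, 83.4% identical over 63.8% of the transcript, had 4.56 CPM in estradiol leaves and 3.13 CPM in mock leaves at 6 h, and reads common to both genes make these levels uncertain. The annotated gene AT4G07385 overlaps DREB1A on the other strand.

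GolS3 (AT1G09350) encodes galactinol synthase, the first enzyme of raffinose synthesis, and is a known target of the CBF proteins. It had 37.6, 29.4 and 16.6 CPM in estradiol leaves against 21.5, 26.0 and 28.3 CPM in mock leaves at 6 h. At 12 h no read was counted in the 3 estradiol libraries, and mock libraries had 0.0401, 0.0 and 0.0589 CPM. At 24 h it had 1.5, 0.944 and 1.57 CPM in estradiol leaves against 1.87, 4.51 and 5.78 CPM in mock leaves, without overlap. With a floor of 3 counts over the group, GolS3 was at least 819.6-fold lower at 12 h than at 6 h in estradiol leaves, and at least 41.8-fold higher at 24 h than at 12 h. Its relative GolS2 was at 5.2, 2.24 and 28.8 CPM in mock leaves at 6, 12 and 24 h and so had another course.

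Of 15 genes on a list of the cold and CBF regulon, DREB1A and GolS3 among them, 11 were lower and 2 higher at 12 h than at 6 h in estradiol leaves, and 14 were lower and 1 higher at 24 h than at 6 h. Beside this, 32.9% and 32.5% of all tested genes were called lower at 12 and 24 h. COR78, a classic cold-induced gene, had 751.8, 30.9 and 83.5 CPM in estradiol leaves and 578.4, 26.2 and 141.9 CPM in mock leaves at 6, 12 and 24 h. COR15A, which encodes a chloroplast stroma protein that protects membranes, had 816.0, 530.4 and 64.4 CPM in estradiol leaves and 598.4, 387.7 and 138.2 CPM in mock leaves. The evening-phased COR27 was among the 2 that were higher, with 1.78, 68.0 and 0.249 CPM in estradiol leaves and 1.79, 65.6 and 0.231 CPM in mock leaves. Between estradiol and mock, edgeR called 1 gene of the list higher at 12 h, where 4.64% of all tested genes were. At 24 h it called 7 lower, GolS3 among them, and 1 higher, where 6.54% and 8.43% of all tested genes were.

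Several members act in specialised metabolism. CYP76C1 (AT2G45560) is a cytochrome P450 that oxidises the monoterpene alcohol linalool. It had 173.7, 159.8 and 161.7 CPM in estradiol leaves against 176.0, 176.7 and 173.9 CPM in mock leaves at 6 h. At 12 h it had 14.1, 17.8 and 17.6 CPM in estradiol leaves against 19.5, 19.0 and 23.2 CPM in mock leaves, and at 24 h 27.8, 28.8 and 28.9 CPM against 31.9, 34.3 and 33.2 CPM. All estradiol libraries lay below all mock libraries at each of the 3 times. At 6 h the nearest were 173.7 and 173.9 CPM, and the difference was not called (edgeR adjusted p = 0.835). TPS03 (AT4G16740), a terpene synthase, had 24.6, 18.8 and 37.4 CPM in estradiol leaves against 20, 17 and 22.8 CPM in mock leaves at 6 h, and was at or near 0 afterwards. At 12 h the 3 libraries held 2 reads in estradiol leaves and 2 in mock leaves, and at 24 h 0 reads in either group. For estradiol leaves the ratio of CPM at 12 h over 6 h was 0.000813 (exact 95% interval 9.8e-05 to 0.00294, counting error only). Both reads came from estradiol 12 h replicate 2, and the fitted log2 fold change of -10.41 moved to -12.76 without it and to -9.77 without estradiol 12 h replicate 1. At 24 h TPS03 was at least 673.2-fold lower than at 6 h by the floor of 3 counts over the group.

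NATA1 (AT2G39030) is an acetyltransferase that makes N-acetylated ornithine and is known as a jasmonate-responsive gene. IGMT5 (AT1G76790) is a methyltransferase of indole glucosinolates. NATA1 had 48.8, 12.0 and 118.8 CPM in estradiol leaves against 30.6, 21.5 and 39.3 CPM in mock leaves at 6 h, and IGMT5 had 26.4, 20 and 88.8 CPM against 22.3, 24.4 and 27.7 CPM. In both genes replicate 3 of the estradiol leaves was far above the other 5 libraries of that time. At 12 h NATA1 was at 0.325, 1.43 and 0.698 CPM in estradiol leaves against 4.73, 1.51 and 0.825 CPM in mock leaves, and IGMT5 at 2.76, 3.28 and 3.06 CPM against 4.41, 3.18 and 3.48 CPM. At 24 h NATA1 was at 2.59, 3.88 and 2.87 CPM in estradiol leaves against 4.32, 1.64 and 1.98 CPM in mock leaves, and IGMT5 at 0.245, 0.315 and 0.299 CPM against 1.02, 1.93 and 0.65 CPM. IGMT5 overlaps AT1G76780 on the other strand, and its relative IGMT4 was at 176.6, 222.5 and 8.74 CPM in mock leaves at 6, 12 and 24 h.

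BGLU44, a glycoside hydrolase, had means of 1028, 140.6 and 40.1 CPM in estradiol leaves and 1017, 151.4 and 35.7 CPM in mock leaves at 6, 12 and 24 h. AT4G18440, annotated as an L-aspartase-like protein, had 1992, 1439 and 3559 CPM in estradiol leaves against 1854, 1680.1 and 1903 CPM in mock leaves at 6 h. Its copy AT1G36280, 89.0% identical over 82.3% of the transcript, stayed between 13.4 and 17.9 CPM over the mock means of the 3 times, with no such peak. NUDT8, a nudix hydrolase, had 133.3, 108.2 and 178.4 CPM in estradiol leaves and 136.0, 126.4 and 132.8 CPM in mock leaves at 6 h. Its means were 8.47 CPM in estradiol leaves and 8.79 CPM in mock leaves at 12 h, and 2.33 CPM in estradiol leaves and 3.41 CPM in mock leaves at 24 h. A second thaumatin-like gene, AT4G36010, had 26.5, 22.0 and 25.6 CPM in estradiol leaves against 19.0, 18.7 and 21.6 CPM in mock leaves at 6 h, where the groups did not overlap. AT2G43535, a knottin-type defence peptide gene, had means of 29.3 CPM in estradiol leaves and 25.6 CPM in mock leaves at 6 h.

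The remaining members were in cell wall, transport and poorly known classes. AT5G62360, a member of the inhibitor family of invertases and pectin methylesterases, had 69.5, 55.9 and 72.6 CPM in estradiol leaves against 54.2, 67.1 and 60.1 CPM in mock leaves at 6 h, 5.8, 6.7 and 5.23 CPM against 8.86, 9.42 and 7.78 CPM at 12 h, and 0.664, 0.839 and 0.485 CPM against 0.477, 0.687 and 0.376 CPM at 24 h. The 2 groups were apart at 12 h only. AT1G22570, a transporter of the major facilitator superfamily, had means of 44.3, 3.0 and 0.281 CPM in estradiol leaves and 47.0, 3.45 and 0.258 CPM in mock leaves at 6, 12 and 24 h. AT1G51090, of the heavy metal transport and detoxification superfamily, had 46.3, 35.7 and 35.8 CPM in estradiol leaves against 36.6, 37.9 and 39.8 CPM in mock leaves at 6 h, 1.57, 2.07 and 1.24 CPM against 1.48, 2.08 and 1.71 CPM at 12 h, and 1.89, 1.21 and 2.16 CPM against 2.64, 2.41 and 2.81 CPM at 24 h. AT2G27385, of the Ole e 1 and extensin family, TRANS11, annotated as a translocase, and AT1G70420, of unknown function, had 6 h means of 101.7, 39.7 and 41.5 CPM in estradiol leaves against 106.0, 37.5 and 36.6 CPM in mock leaves.

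A microRNA gene, MIR167d (AT1G31173, chr1:11137539-11137915, plus strand), was the shortest member at 377 bases of exon. Its microRNA family is known to cut the mRNAs of the auxin response factors ARF6 and ARF8. The libraries report the polyadenylated precursor transcript, not the mature microRNA. The mature sequence, from the TAIR10.1 annotation (chr1:11137556-11137577, plus strand), is printed with its seed, bases 2 to 8, in capitals.
miR167d: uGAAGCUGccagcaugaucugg
The precursor had 35.8, 30.0 and 30.2 CPM in estradiol leaves against 33.2, 30.0 and 31.8 CPM in mock leaves at 6 h. It had 1.44, 1.96 and 2.02 CPM in estradiol leaves against 2.6, 2.65 and 2.3 CPM in mock leaves at 12 h, and 2.83, 3.09 and 3.88 CPM against 5.34, 3.31 and 4.31 CPM at 24 h. The groups overlapped at 6 and 24 h and not at 12 h, and neither later difference passed the test (adjusted p = 0.0921 at 12 h and 0.0619 at 24 h, edgeR). The 24 h difference was called lower without estradiol 24 h replicate 3 or mock 24 h replicate 2 (adjusted p = 0.0409 and 0.0174, edgeR), and by DESeq2 on all libraries (adjusted p = 0.0439).

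After 12 h the group parted in estradiol leaves. From 12 to 24 h, 8 genes rose, where 35.0% of all tested genes were called higher, and 9 fell, where 38.7% were called lower, so the counts are near the background in both directions. Those that rose were LHB1B1, CYP76C1, J11, TRANS11, MIR167d, AT1G51090, NATA1 and GolS3. J11 rose by 2.38 ± 0.24 and LHB1B1 by 1.93 ± 0.45 (log2 fold change and SE, edgeR adjusted p = 4.55e-08 and 0.000874). Those that fell were PORB, AT4G18440, BGLU44, NUDT8, PRR5, AT5G62360, AT1G22570, AT1G70420 and IGMT5, with PRR5 at -2.93 ± 0.36 and AT5G62360 at -2.64 ± 0.24. Without estradiol 24 h replicate 2 the fall of PRR5 was -3.63. The rise of NATA1 (2.51 ± 1.07, adjusted p = 0.0424) was not called without estradiol 12 h replicate 1 or 3, with adjusted p = 0.132 and 0.0829, nor without estradiol 24 h replicate 1, 2 or 3, with adjusted p = 0.0651, 0.0971 and 0.0721. That of AT1G51090 was not called without estradiol 24 h replicate 3 (adjusted p = 0.065). DREB1A, AT1G20030 and AT2G27385 were called higher only without estradiol 12 h replicate 3, estradiol 12 h replicate 1 and estradiol 24 h replicate 1, with adjusted p = 0.037, 0.0229 and 0.0448. By limma-voom the rise of NATA1 and the fall of IGMT5 were not called (adjusted p = 0.266 and 0.205). With gene totals in place of TMM scaling, 6 genes rose and 11 fell, and the rises of NATA1 and AT1G51090 were not called (adjusted p = 0.0918 and 0.552).

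How estradiol shifted the group was read at each time against mock. The mock libraries both chose the 24 genes and serve as the comparator here, and the 3 comparisons use different libraries. At 6 h, 0 of the 24 genes were called higher and 0 lower by edgeR, where 0.026% of all tested genes were called higher and 0.0104% lower. The count was also 0 by DESeq2 and by limma-voom, and 1 of the 24, IGMT5, had an unadjusted p below 0.05, as did 7.57% of all. The log2 fold changes ran from -0.09 for CYP76C1 to 0.99 for NATA1, with a median of 0.08 against 0.01 over all genes, and 4 of 24 genes had groups that did not overlap, against 13.6% of all genes. The 2 largest, NATA1 (0.99 ± 0.52, adjusted p = 0.682) and IGMT5 (0.88 ± 0.37, adjusted p = 0.61), rested on 1 library, and without estradiol 6 h replicate 3 they were -0.04 and -0.12.

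At 12 h, LZF1 was called higher in estradiol leaves, where 4.64% of all tested genes were, and CYP76C1 and AT5G62360 were called lower, where 5.07% were. LZF1 rose by 0.39 ± 0.10, CYP76C1 fell by 0.35 ± 0.09 and AT5G62360 fell by 0.57 ± 0.14 (log2 fold change and SE, edgeR adjusted p = 0.02, 0.0195 and 0.0176). All 3 shifts were under 2-fold, in genes that were by then far below their 6 h levels in both groups. The call of LZF1 was lost without estradiol 12 h replicate 1 (adjusted p = 0.175), mock 12 h replicate 2 (0.084) or mock 12 h replicate 3 (0.0829). The call of CYP76C1 was lost without estradiol 12 h replicate 1 (adjusted p = 0.147) or mock 12 h replicate 3 (0.125), and that of AT5G62360 without estradiol 12 h replicate 1 (0.0962) or mock 12 h replicate 2 (0.0755). J11, at 0.71 ± 0.28 with adjusted p = 0.125, was called higher only without estradiol 12 h replicate 3 (1.01, adjusted p = 0.00621). Over the 24 genes, 5 had groups that did not overlap, against 32.0% of all genes.

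At 24 h, 0 of the 24 genes were called higher, where 8.43% of all tested genes were, and 3 were called lower, where 6.54% were. DESeq2 and limma-voom also called 0 higher, and 7 of the 24 genes had an unadjusted p below 0.05 in edgeR, as did 28.5% of all. Groups that did not overlap were seen in 5 of the 24 genes, against 26.2% of all genes. GolS3 fell by 1.64 ± 0.41, AT1G51090 by 0.61 ± 0.19 and CYP76C1 by 0.30 ± 0.09 (log2 fold change and SE, edgeR adjusted p = 0.013, 0.0396 and 0.0245). The call of GolS3 was lost without mock 24 h replicate 2 (adjusted p = 0.0608) and by limma-voom (-1.53, adjusted p = 0.131). That of CYP76C1 was lost without estradiol 24 h replicate 1 (0.0832), estradiol 24 h replicate 3 (0.0684) or mock 24 h replicate 2 (0.133), and with gene totals (0.0764). That of AT1G51090 was lost without estradiol 24 h replicate 1 or 2 (0.0845 and 0.138) and without mock 24 h replicate 1, 2 or 3 (0.0664, 0.0847 and 0.0811), by limma-voom (0.135), with gene totals (0.0864) and with only the 24 h libraries fitted (0.106). IGMT5 had the lowest fold change, -2.27 ± 1.06, with groups that did not overlap, but its adjusted p was 0.167. It was called lower by DESeq2 (adjusted p = 0.00404) and by edgeR with only the 24 h libraries fitted (-2.2, adjusted p = 0.0235). Over all alternatives its adjusted p reached 0.557. AT4G18440, at -0.74 ± 0.32 with adjusted p = 0.131, was called lower without mock 24 h replicate 3 (-1.03, adjusted p = 0.0281). The median log2 fold change of the group was -0.29 at 24 h, against -0.03 over all genes tested, with 18 values below 0 and 5 above. Most tested genes were below 0 as well, since their median is.

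**Figure D4:**
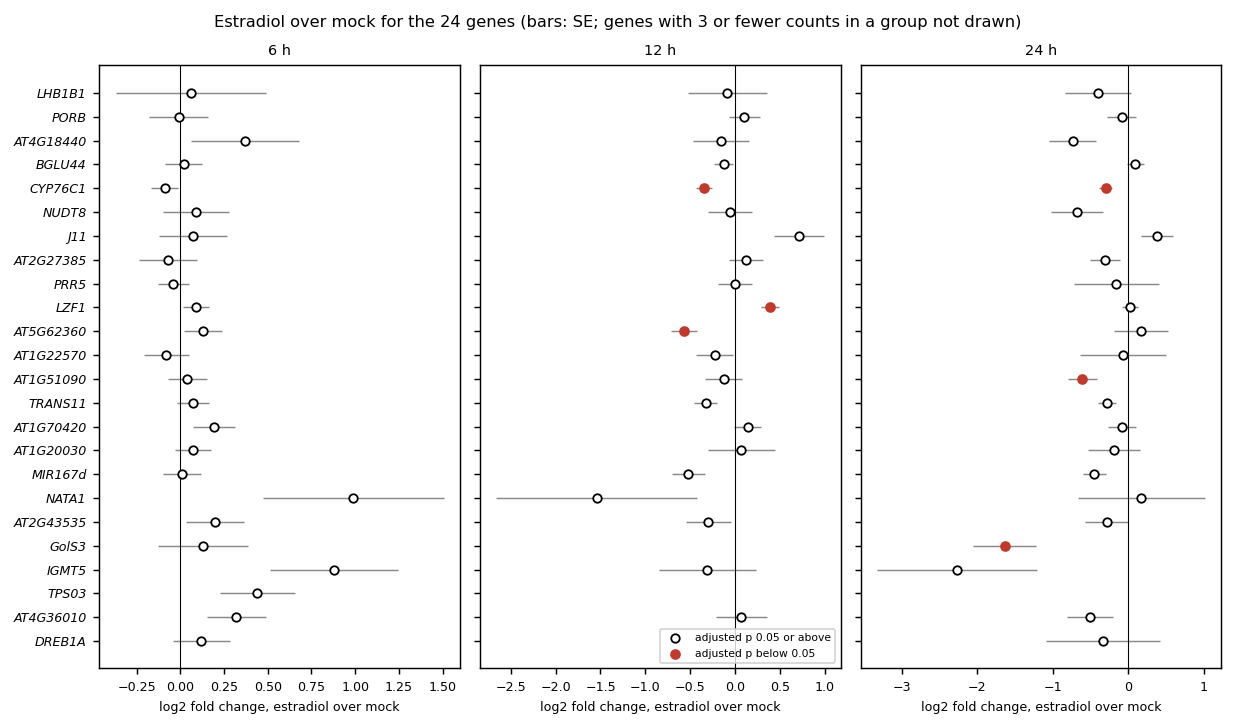
Log2 fold change of estradiol over mock with its SE at 6, 12 and 24 h (panels, each with its own axis range) for the 24 genes, in order of mock level at 6 h. Filled red points passed an adjusted p of 0.05, and genes with 3 or fewer reads in a group have no point. There are no filled points at 6 h, 3 at 12 h and 3 at 24 h.

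The effect of estradiol was also compared between times. The difference between the effects at 24 and 6 h was called for GolS3 alone among the 24 genes, at -1.78 ± 0.49 (log2 and SE, edgeR adjusted p = 0.042), where 6.03% of all tested genes were called in either direction. GolS3 thus stood at 0.13 ± 0.26 at 6 h and at -1.64 ± 0.41 at 24 h, estradiol over mock. Leaving out mock 6 h replicate 1, 2 or 3 gave adjusted p = 0.0945, 0.0699 and 0.0582, and leaving out estradiol 6 h replicate 1 or 2 gave 0.0856 and 0.0656. Leaving out estradiol 24 h replicate 1, 2 or 3 gave 0.0943, 0.0905 and 0.0868, and leaving out mock 24 h replicate 2 or 3 gave 0.123 and 0.086. The call was also lost by limma-voom (0.216), with the replicate block (0.0709) and with gene totals (0.0518). Between 12 and 6 h, and between 24 and 12 h, edgeR called 0 of the 24 differences, where 0.791% and 2.12% of all tested genes were called. At an unadjusted p below 0.05 there were 5 and 1 of the 24 genes, against 12.8% and 12.1% of all. DESeq2 called 1 and 0 of these differences and limma-voom 0 and 0. Between 24 and 6 h, 7 of the 24 genes had an unadjusted p below 0.05 in edgeR, against 19.1% of all. There, 20 of the 24 differences were below 0, with a median of -0.4 against -0.04 over all genes tested. As the latter median is also below 0, most tested genes were below 0 too. TPS03, with 0 reads at 24 h in both groups, is among the 20 and has no measurable difference.

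One library stood apart in the group at 6 h. In estradiol replicate 3, NATA1 and IGMT5 were 1.95 and 1.82 above the mock 6 h mean on the log2 scale with 0.5 CPM added, AT4G18440 was 0.97 above it and TPS03 0.89, while GolS3 was 0.59 and AT2G27385 0.48 below it. Of the 24 genes, 12 had their highest estradiol 6 h value in that library, 10 in replicate 1 and 2 in replicate 2, and replicate 2 held 18 of the lowest. The median coefficient of variation of the 24 genes was 13.9% among estradiol libraries at 6 h and 5.19% among mock libraries. The order was the other way at 12 h, 15.1% against 18.8%, and at 24 h, 24.0% against 30.8%. A list of 16 touch and wound genes moved with estradiol 6 h replicate 3. It summed to 7784, 4970.5 and 13675 CPM in estradiol replicates 1, 2 and 3 at 6 h, against 6686, 5973 and 6459 CPM in mock replicates. The list's median log2 difference from the mock mean was 0.21, -0.01 and 1.04 in the 3 estradiol libraries. The most abundant gene of the list is LOX2, a lipoxygenase of jasmonate synthesis, at 6326 ± 2934 CPM in estradiol leaves and 4600.4 ± 309.9 CPM in mock leaves at 6 h (SD, n = 3 each). Of the list's 15 tested genes, 8 were lower and 6 higher at 12 h than at 6 h in estradiol leaves. At 24 h, 8 were lower and 4 higher than at 6 h. By comparison, 32.9% and 32.5% of all tested genes were called lower at 12 and 24 h. LOX2, AOS, VSP1 and VSP2 were lower at both later times, whereas TCH3, WRKY33 and WRKY40 were higher. Against mock, edgeR called 3 genes of the list higher at 12 h, where 4.64% of all tested genes were. It called 5 higher at 24 h, where 8.43% were. TCH3, WRKY33 and WRKY40 were called at both times, and ERF6 and ERF104 at 24 h. LOX2, AOS, VSP1 and VSP2 were called at neither. The part of the touch and wound genes in the spread of NATA1, IGMT5 and TPS03 was not tested. Without estradiol 6 h replicate 3 the fall of NATA1 from 6 to 12 h in estradiol leaves was -5.71 in place of -6.74 on the log2 scale, that of IGMT5 was -3.38 in place of -4.38, and both were still called (edgeR adjusted p = 4.19e-07 and 1.51e-10). From 6 to 24 h they were -3.2 in place of -4.22 and -6.24 in place of -7.23.

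**Figure D5:**
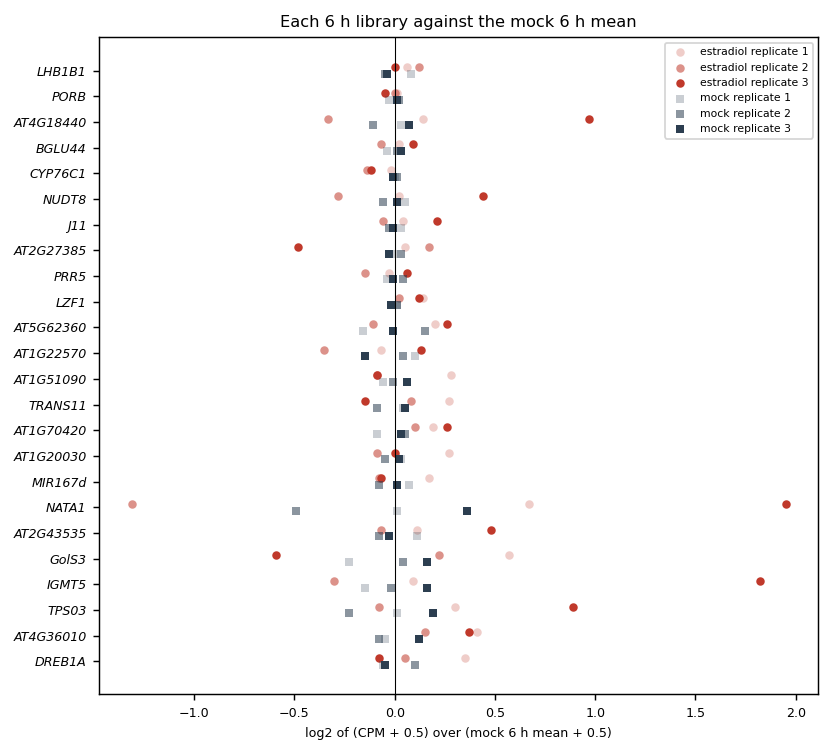
Log2 of CPM + 0.5 over the mock 6 h mean + 0.5 (x axis) for each 6 h library and each of the 24 genes (rows). Red circles, drawn above, are estradiol replicates and dark squares, below, are mock replicates, with darker shades for higher replicate numbers. Estradiol replicate 3 reaches 1.95 for NATA1 and 1.82 for IGMT5, while mock replicates stay between -0.49 and 0.36.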

How the data were processed

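Polyadenylated RNA of 18 leaf libraries was sequenced, 3 in each of 6 groups, with groups and replicate numbers taken from the sample titles. The authors deposited whole-number read counts per gene without normalization, made, per the submitters' processing notes, with FastQC 0.11.2, TopHat2 2.0.10 and HTSeq on TAIR10. No annotation release, strand setting or counting mode is stated there, so reads of overlapping genes and near copies are uncertain. The 5 classes of reads assigned to no gene (5.76 to 6.71% of reads) were left out. Symbols, coordinates, upstream windows and the microRNA are from RefSeq's TAIR10.1, a later release of the assembly than the one the submitters name. Sequence matches between transcripts were found with BLAST.

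CPM are counts over the library's gene total. Counts were tested with edgeR 4.0.16 (quasi-likelihood, TMM, R 4.3.3) in 1 fit of all 18 libraries and 6 groups, after filterByExpr (minimum count 10, minimum total 15), which left 19227 genes. The common biological variation was 8.26% (12 residual degrees of freedom). Benjamini-Hochberg adjustment covered all tested genes, with calls below 0.05. Each SE is the fold change's size on the log2 scale over the square root of F. It can understate the error of a large fall to a few reads. A gene with no read in a group is given as a bound from a floor of 3 counts, and one with 1 to 3 reads as a ratio of CPM with an exact 95% interval, both for counting error only. The code was tested on simulated counts.

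The 24 genes and the lists (evening clock, B-box, cold and CBF regulon, touch and wound, photosynthesis, flower markers) were chosen with earlier results of these data known, so list counts are descriptions. All 24 genes are named, under a rule that took the most abundant, the most sharply peaked, list members, called genes, those that fell least and those next to the thresholds. Copies, TOC1, GI, LHCB2.1, BBX24, COR genes and LOX2 were named after their values were seen. Alternatives were other thresholds for the choice, DESeq2 size factors, upper-quartile and gene-total scaling, other filters, DESeq2 1.42.0, limma-voom (limma 3.58.1), only the contrast's libraries, a replicate block, a 2-fold minimum, adjusted p below 0.01, and leaving out each library.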

Additional observations from a re-analysis of the deposited data

Results flagged for a closer look

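The effect of estradiol on GolS3, galactinol synthase 3, differed between times by a test of the difference itself. The effect at 24 h minus that at 6 h was -1.78 (log2, edgeR adjusted p = 0.042 over 19227 genes). In 14 of 22 alternatives the call was lost, with adjusted p values up to 0.216 (limma-voom). These included the replicate block (0.0709), gene totals (0.0518) and 10 of the 12 libraries of 6 and 24 h, each left out in turn. Of the 6 libraries of 24 h, the 3 estradiol libraries (1.5, 0.944 and 1.57 CPM) were all below the 3 mock libraries (1.87, 4.51 and 5.78 CPM), while at 6 h the groups overlapped. At 6 h, estradiol replicate 3 had 16.6 CPM against 37.6 and 29.4 CPM in the other estradiol replicates. The cause was not tested.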

How the results depend on the processing

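All 24 genes fell from 6 to 12 h and from 6 to 24 h in estradiol leaves under each alternative tried. The number of genes chosen was 42 with a 4-fold condition, 18 with a 6-fold condition, 28 and 21 with a level of 5 and 20 CPM, 34 with TMM-scaled CPM (21 of them shared with the 24), and 23 to 27 with each mock library left out. TMM-scaled CPM lost CYP76C1, AT2G27385 and TRANS11, whose smaller folds were then 4.67, 4.99 and 4.7. Genes that entered included VSP2 of the touch and wound list, at 5.59. From 12 to 24 h, 6 to 8 rose and 9 fell with a library left out, against 6 and 11 with gene totals. Estradiol over mock at 6 h gave 0 calls in every setting tried. At 12 h the higher count, 1, became 0 with only the contrast's libraries, with an adjusted p below 0.01 and with a 2-fold minimum, and 0 to 2 with a library left out. The lower count, 2, became 1, 0 and 0 in those settings and 0 to 2 with a library left out. At 24 h the lower count, 3, became 5 with DESeq2, which added IGMT5 (adjusted p = 0.00404) and MIR167d, 1 with gene totals, 1 with limma-voom, which lost GolS3 and AT1G51090, 0 with an adjusted p below 0.01, 1 with a 2-fold minimum, and 1 to 3 with a library left out. The difference between 24 and 6 h, called for 1 gene, became 2 with DESeq2, 0 with gene totals, 0 with limma-voom, 0 with the replicate block, 0 with an adjusted p below 0.01, and 0 to 2 with a library left out. Without estradiol 6 h replicate 3, NATA1 and IGMT5 turned from 0.99 and 0.88 to -0.04 and -0.12 at 6 h, and over all libraries left out they reached at most 1.47 and 1.24, without estradiol 6 h replicate 2. The causes of these changes were not tested. Deviations from the group mean in same-numbered libraries of estradiol and mock correlated at -0.00931, 0.0548 and 0.0586 at 6 h. The values were 0.171, -0.0629 and 0.175 at 12 h and -0.16, 0.198 and -0.000681 at 24 h. No consistent pairing by number was seen, but with 3 libraries a group these values cannot exclude it. With the replicate block the 24 h lower count was 2, as AT1G51090 had an adjusted p of 0.0534, and the 12 h counts were 1 and 2. Depth limits GolS3 at 12 h, with 0 reads in estradiol and 3 in mock leaves, TPS03 at 12 and 24 h, with 0 to 2 reads a group, and DREB1A at 12 and 24 h, with 3 to 14.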
